A study of Homo sapiens with 4 samples.

Results

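Of the MIR205HG ChIRP-seq peaks found in both replicate 3 and replicate 2 of RWPE-1 cells, 215 lay at the ends of protein-coding genes. A peak was counted here when it lay on chromosomes 1 to 22 or X, overlapped a replicate 2 peak by at least 1 bp, and had its replicate 3 summit in the 3′ UTR of a protein-coding transcript or within 3000 bp past the 3′ end of a protein-coding gene and outside every such gene. Summits in promoter zones, which run from 1500 bp before to 500 bp after each transcript start, were left out. The 215 peaks were 2.64% of the 8133 shared peaks (exact 95% interval 2.31 to 3.02%), and replicate 3 had 17054 peaks in all. In the 3′ UTR lay 83 of them, and 132 lay downstream of the gene. The peaks were selected on the peak calls of replicates 2 and 3, so their fold enrichments in these replicates are given as a description and were not tested. Replicate 1 had no part in the selection.

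The RWPE-1 line was derived from normal human prostate epithelium, was immortalized, and has a basal character. The cells were crosslinked with formaldehyde, and chromatin was pulled down with biotinylated antisense probes against MIR205HG in 3 replicates or against lacZ, a bacterial RNA, in 1 mock library. Every MIR205HG replicate was compared with this same lacZ library, for which no peak list was used here, and all samples come from a single untreated cell line. No sample lacks MIR205HG, and no test between conditions is possible. On the same chromosomes replicate 1 had 723 peaks and replicate 2 had 10765, so that the lists differed widely in size. The reads themselves were not analysed here. Solved from the deposited folds and p-values, the depth relative to the lacZ library was 1.83 for replicate 1, 1.39 for replicate 2 and 1 for replicate 3. The shortest list thus came from the replicate with the highest ratio, and why its list was short was not tested.

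The 3′ UTR is the part of a messenger RNA after the stop codon, where RNA-binding proteins and microRNAs act, and the DNA just past it is where transcription ends. MIR205HG is the host gene of miR-205 and also gives a nuclear long noncoding RNA, LEADR, that carries a stretch of an Alu. Alu elements are short primate repeats that are common in and around genes, also in 3′ UTRs.

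Each peak was searched for its longest exact match to the MIR205HG transcript, in a 500 bp window centred on the replicate 3 summit and on both strands. Most of these matches lay in the Alu of the transcript, whose sequence is not shown. Among the sites also found in replicate 1, the longest match lay outside the Alu at APOD and CXCL13, with 10 and 9 nt, and at 4 others. The lines give these 4, whose matches were longer, at 11 to 16 nt. Each has 30 bases, read 5′ to 3′ on the strand that reads as the transcript does, on GRCh37, and capitals mark the bases of the match.
DPH6, chr15:35508959-35508988, + strand: ttgaatcACTTGGAAAAACCAGTaaaaagg
GZF1, chr20:23353693-23353722, - strand: taaattgaCAAGTACCCATCTTGtttccca
QKI, chr6:163998241-163998270, + strand: gctcctttCCTCTTGCTCACCggaacctta
SLC10A2, chr13:103696560-103696589, + strand: caagtcctaTCTTGCTCACCtgtcttgctc

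These matches covered transcript bases 39 to 54 at DPH6, 515 to 529 at GZF1, 22 to 34 at QKI and 24 to 34 at SLC10A2. The QKI and SLC10A2 matches thus shared the bases from 24 to 34, an overlap that was noted after the values were seen. In 500 bp windows laid over all gene ends, the longest match had a median of 11 nt (upper quartile 13 nt). Outside the Alu these windows had a median of 10 nt (upper quartile 10 nt). Longest matches of 13 nt, as at QKI, or 11 nt, as at SLC10A2, are thus not rare in such windows.

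The fold enrichment of a peak is the MIR205HG ChIRP signal at the summit over the lacZ background level there, with a constant added to both. Its median over the 215 gene-end peaks was 8.30 in replicate 3 (quartiles 6.23 and 11.7, range 3.15 to 32.6) and 6.55 in replicate 2 (quartiles 5.18 and 9.09, range 2.81 to 21.1). The 7918 shared peaks outside gene ends had medians of 7.97 and 6.46. The gene-end peaks therefore sat within the spread of the other shared peaks. Replicate 3 gave the higher fold for 164 of the 215 peaks (76.3%), and for 5936 of the 7918 other shared peaks.

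**Figure D1:**
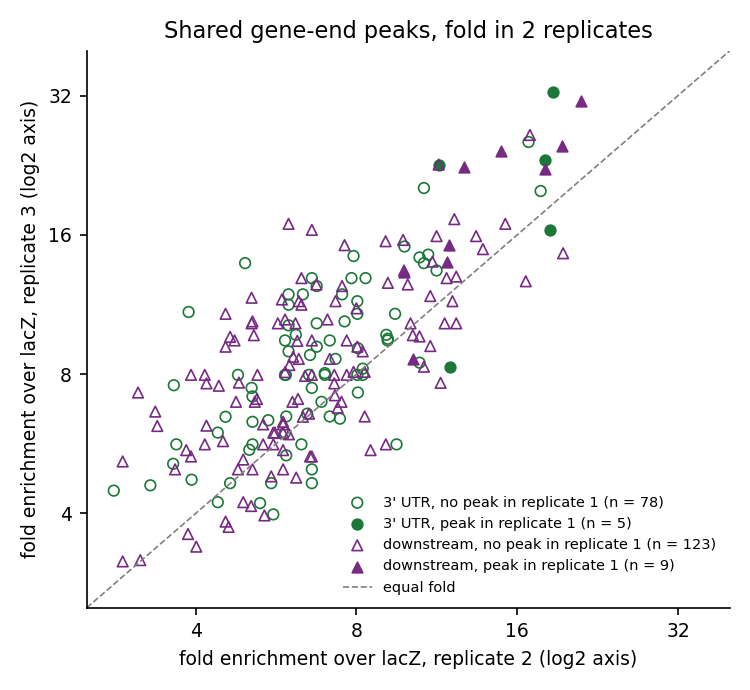
Fold enrichment over lacZ of each of the 215 shared gene-end peaks in replicate 2 (x axis) and replicate 3 (y axis), both on log2 axes; circles are peaks in 3′ UTRs, triangles are peaks downstream, and filled symbols overlap a replicate 1 peak. The 14 filled symbols lie towards the upper right, and most points lie above the dashed line of equal fold.

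Across the 215 peaks the folds of the 2 replicates had a Spearman rho of 0.69 (Pearson r of the log2 folds 0.74), and the other 7918 shared peaks gave 0.68 and 0.73. Both folds are taken over the same lacZ library, so that a low lacZ level raises both. Where a peak overlapped more than 1 replicate 2 peak, as 19 of the 215 did, the one with the highest fold was used. The summits of the replicates lay a median of 48 bp apart (quartiles 14.5 and 107 bp), and 211 of the 215 replicate 2 summits lay in a gene end by the same rule. Solved from the deposited fold and p-value, the median number of reads at the summit was 21 in replicate 3 (range 9 to 87) and 24 in replicate 2 (range 10 to 96). The lacZ level is the background value behind the fold, solved in the same way and scaled to the depth of the comparison. It is not a count of lacZ reads at the summit. The level had a median of 1.34 in replicate 3 (quartiles 1 and 2.17, lowest 0.846), and 0.846 was also the lowest over all shared peaks. It was at or below 1 at 79 of the 215 peaks (36.7%) and at 35.7% of the other shared peaks. Folds at such peaks rest on a low background value. At NECAB3, which held the most reads (87 and 96), the lacZ level was 6 in both comparisons.

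CXCL13, a chemokine that attracts B cells, had the gene-end peak with the highest mean fold. The peak lay 1241 bp past the gene (chr4:78533974-78535286), with a fold of 31.1 in replicate 3, 21.1 in replicate 2 and 10.6 in replicate 1. In a 3′ UTR, the highest was at QKI, an RNA-binding protein of splicing (chr6:163997929-163998373), with 32.6, 18.7 and 14.8. Replicate 3 was the highest and replicate 1 the lowest of the 3 at both. A second peak of CXCL13, 178 bp past its end, had 16.9 and 15.2 in replicates 3 and 2 and no replicate 1 peak.

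Downstream of ANKRD33 (chr12:52286155-52287463), an ankyrin repeat protein of photoreceptors, the fold was 24.9 in replicate 3, 19.4 in replicate 2 and 10.5 in replicate 1. MYLK2, the myosin light chain kinase of skeletal muscle, had a broad downstream peak (chr20:30419572-30424609) with 26.3 and 16.9 in replicates 3 and 2. Its replicate 2 summit was 612 bp away from the replicate 3 summit, and the next gap among the 10 peaks with the highest mean fold was 451 bp, at NOM1. In the 3′ UTR of C3orf70 (chr3:184798164-184798495) the folds were 25.4 and 16.8. Neither MYLK2 nor C3orf70 had a replicate 1 peak at that site.

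The 3′ UTR of USP8, a deubiquitinase of endosomes, held a peak (chr15:50794180-50795609) with folds of 23.2, 18 and 8.83 in replicates 3, 2 and 1. C9orf64 had 22.2, 18 and 8.13 at a peak 1130 bp past its end (chr9:86551342-86552794). At DPH6, an enzyme of diphthamide synthesis, the downstream peak (chr15:35508747-35509154) had 24.3 in replicate 3, 14.9 in replicate 2 and 18.3 in replicate 1. It was the only 1 of the 10 in which replicate 1 was above replicate 2. SEPTIN3, a septin of neurons, had 19.9 and 17.7 in its 3′ UTR (chr22:42390535-42391045) and no replicate 1 peak. NOM1, a nucleolar protein, had 16.4, 18.4 and 5.13 in its 3′ UTR (chr7:156762106-156763455), and there replicate 2 was the highest.

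Replicate 1 had a peak at 14 of the 215 gene-end peaks, which is 6.51% (exact 95% interval 3.61 to 10.7%). Of all shared peaks, 7.99% overlapped a replicate 1 peak, so that the share at gene ends lay near this background. The 3′ UTR peaks gave 5 of 83 and the downstream peaks 9 of 132. None of the 332 gene-end peaks of replicate 3 that lacked a replicate 2 peak overlapped replicate 1, which allows a share of up to 0.904% (3 counts, counting error only).

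**Figure D2:**
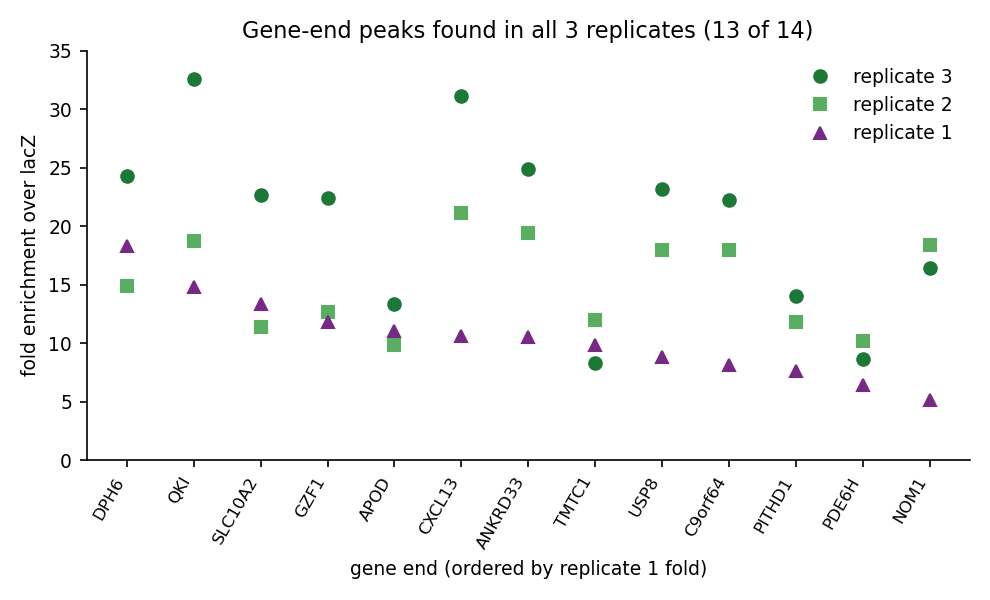
Fold enrichment over lacZ (y axis, linear) in replicates 3, 2 and 1 at 13 of the 14 gene-end peaks that overlap a replicate 1 peak, ordered by the replicate 1 fold. Replicate 1 ranges from 5.13 at NOM1 to 18.3 at DPH6 and lies below replicate 3 at all of those plotted but TMTC1.

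Of the 14 peaks, 13 are named here, at DPH6, QKI, SLC10A2, GZF1, APOD, CXCL13, ANKRD33, TMTC1, USP8, C9orf64, PITHD1, PDE6H and NOM1. The median fold of the 14 in replicate 1 was 10.2 (range 5.13 to 18.3), on 15 to 46 reads at the summit, and all 650 shared peaks with a replicate 1 peak had a median of 8.72. The replicate 1 summit lay within 100 bp of the replicate 3 summit at 13 of the 14, and 509 bp away at NOM1. In replicates 3 and 2 the 14 had median folds of 22.3 and 13.8, against 7.97 and 6.31 for the 201 gene-end peaks with no replicate 1 peak. All 14 lay among the 61 gene-end peaks with the highest mean fold of replicates 2 and 3. The replicate 1 list was short, and its medians describe only the sites that passed its threshold.

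The 5 peaks with the highest replicate 1 fold had no alignment to the MIR205HG Alu. Of all 14 peaks, 5 had one of at least 100 bp (35.7%, 12.8 to 64.9%), against 51.6% of the 215. With the first intron of MIR205HG searched too, 9 of the 14 had it (64.3%, 35.1 to 87.2%), against 67.0% of the 215. Both intervals include the share of the 215, so a lack of the Alu at replicate 1 sites cannot be read from these 14. SLC10A2, the bile acid transporter of the ileum, had a 3′ UTR peak (chr13:103696374-103696694) with 22.7, 11.4 and 13.3 in replicates 3, 2 and 1. Past the end of GZF1, a zinc finger repressor, and in the end of NAPB on the other strand, a peak (chr20:23353598-23354009) had 22.4, 12.7 and 11.8. APOD, a lipocalin that carries lipids, had 13.3, 9.81 and 11 at a peak 2520 bp past its end (chr3:195292871-195293386). The lacZ level at APOD was 4 in replicate 3, the highest of the 14. With DPH6 and QKI, these are the 5 with the highest replicate 1 fold.

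The other replicate 1 sites had lower folds there. TMTC1, an O-mannosyltransferase of the endoplasmic reticulum, had 8.3, 12 and 9.87 in replicates 3, 2 and 1 in its 3′ UTR (chr12:29656481-29657062), the only 1 of the 14 with replicate 1 above replicate 3. PITHD1 had 14, 11.8 and 7.58, and PDE6H, the inhibitory subunit of the cone phosphodiesterase, had 8.63, 10.2 and 6.43.

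Gene ends held 71.5 Mb of the sequence searched, and the 215 peaks were 3.01 per Mb (exact 95% Poisson interval 2.62 to 3.44). The rest of the genome had 2.86 shared peaks per Mb, so that the ratio was 1.05 (from 0.916 up to 1.198, counting error only). The 3′ UTRs had 2.28 per Mb (1.82 to 2.83), which was 0.797 of the rest. The downstream stretches had 3.76 per Mb (3.14 to 4.46), a ratio of 1.312. The ratio of 1.05 thus joins a part below the rest and a part above it. Promoter zones had 3.63 per Mb, coding gene bodies 3.16, intergenic sequence 2.56 and lncRNA genes 2.41.

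**Figure D3:**
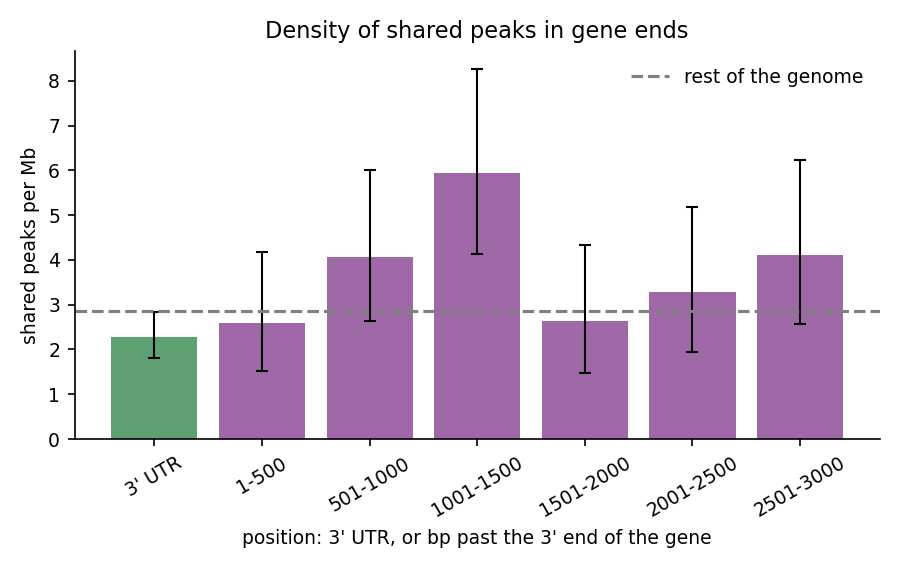
Shared peaks per Mb (y axis) in 3′ UTRs and in steps of 500 bp past the 3′ end of the gene (x axis), with exact 95% Poisson intervals as bars and the rest of the genome as the dashed line at 2.86. The step from 1001 to 1500 bp is the highest at 5.94 per Mb, and the intervals of most steps include the dashed line.

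Past the gene end, 17 peaks lay within the first 500 bp (2.60 per Mb) and 35 lay from 1001 to 1500 bp (5.94 per Mb, 4.14 to 8.26). From 1501 to 2000 bp there were 15 (2.63 per Mb), and the other steps had 3.28 to 4.11 per Mb. Peaks close together at the same gene are not independent, and the intervals take no account of it. Genes with a 3′ UTR peak had long 3′ UTRs, with a median of 3612.5 bp for the longest annotated one (68 genes), and the median over all 19637 protein-coding genes with a 3′ UTR was 1190 bp. A longer 3′ UTR holds more sequence in which a peak can fall, and whether this accounts for the lengths was not tested. For genes with a downstream peak the median was 1196 bp.

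Chromosome 20 had 9.04 gene-end peaks per Mb of gene ends (17 peaks), chromosome 15 had 8.41 (20 peaks) and chromosome 19 had 6.92 (26 peaks). Some of these peaks were clustered at single genes. On chromosome 15, RPP25 had 4 and USP8 and DPH6 had 3 each. BMP7 and TM9SF4 had 3 each on chromosome 20, and CACNG8 had 3 on chromosome 19. Chromosome X had 1 peak, 0.317 per Mb. All shared peaks per Mb were 6.82 on chromosome 20, 4.03 on chromosome 15, 4.93 on chromosome 19 and 0.622 on X, so that chromosomes 20 and X stood at the ends of both orders. The copy number of these chromosomes in RWPE-1 was not analysed here.

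The gene-end peaks fell on 162 nearest genes, of which 118 had 1 peak, 36 had 2, 7 had 3 and 1 had 4. Of the gene-end peaks, 6 shared their replicate 2 peak with another one, so these are not separate peaks in replicate 2. Counting every gene whose end held a summit gave 170 genes, and 0.846% of the 20090 protein-coding genes had a shared gene-end peak. RPP25, a subunit of RNase P and MRP, had 4 downstream peaks within 2115 bp of each other. Their folds were 3.96 to 10.4 in replicate 3 and 5.11 to 8.5 in replicate 2, and all 4 had an Alu alignment. The 3′ UTR of USP8 held 3 peaks within 3185 bp, with summits 10027 to 13212 bp before the transcript end. Their folds were 13.9 to 23.2 in replicate 3. BMP7, a bone morphogenetic protein, had 3 peaks over 3410 bp, with 5.64 to 11.8. DPH6 had 3 over 1949 bp, and only the one nearest to the gene had a replicate 1 peak. TM9SF4, RNASE1 (the secreted pancreatic ribonuclease), CACNG8 (a subunit of AMPA receptors) and C3orf70 also had 3 each.

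Of the gene-end peaks, 64.7% had another shared peak within 5 kb (exact 95% interval 57.9 to 71.0%), and of the other shared peaks 60.5% (59.4 to 61.5%). A lncRNA gene covered 22 of the 215 summits, 8 summits lay in the ends of genes on both strands, and 1 lay in coding sequence of another transcript. At these the gene that the peak belongs to cannot be told apart by position.

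On the lists of named pathways and cell types, BST2 was the only gene with a shared gene-end peak. BST2, or tetherin, is an interferon-induced protein that holds budding viruses at the cell surface, and it was 1 of 40 interferon response genes searched. Its peak lay 2645 bp past the gene (chr19:17510214-17512473), with folds of 13 in replicate 3 and 12.3 in replicate 2, and it had no replicate 1 peak. None of 30 basal and 24 luminal prostate epithelium genes, 17 genes known for Alu in the 3′ UTR, 22 genes of 3′ end processing or 29 genes of the p53 pathway and apoptosis had a shared gene-end peak. With 0.846% of all genes having one, lists of this size would hold few or none. Of 572 genes with zinc finger symbols, counted after the members were seen, 4 had one, ZFP3, ZKSCAN4, ZNF44 and ZNF554.

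The Alu of the MIR205HG transcript was taken as bases 182 to 388 of 1007. These bounds are not an annotation. They are the outermost bases at which alignments from gene-end windows reached at least 25% of their highest coverage. An Alu alignment was a blastn alignment of at least 100 bp to the transcript that lay mainly in this span. It was present at 111 of the 215 gene-end peaks, or 51.6% (exact 95% interval 44.7 to 58.5%). The other shared peaks had it at 42.9% (3396 of 7918) and the replicate 3 gene-end peaks with no replicate 2 peak at 24.7% (20.2 to 29.7%). Windows laid every 500 bp over all gene ends had it at 12.2%. Thus the shared gene-end peaks lay above the windows at gene ends. Among the other shared peaks, those in coding gene bodies had it at 46.9% (45.2 to 48.5%), which lies inside the interval at gene ends. Alu copies share most of their sequence, and reads from them map less surely to a single place. How the aligner placed such reads was not tested.

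**Figure D4:**
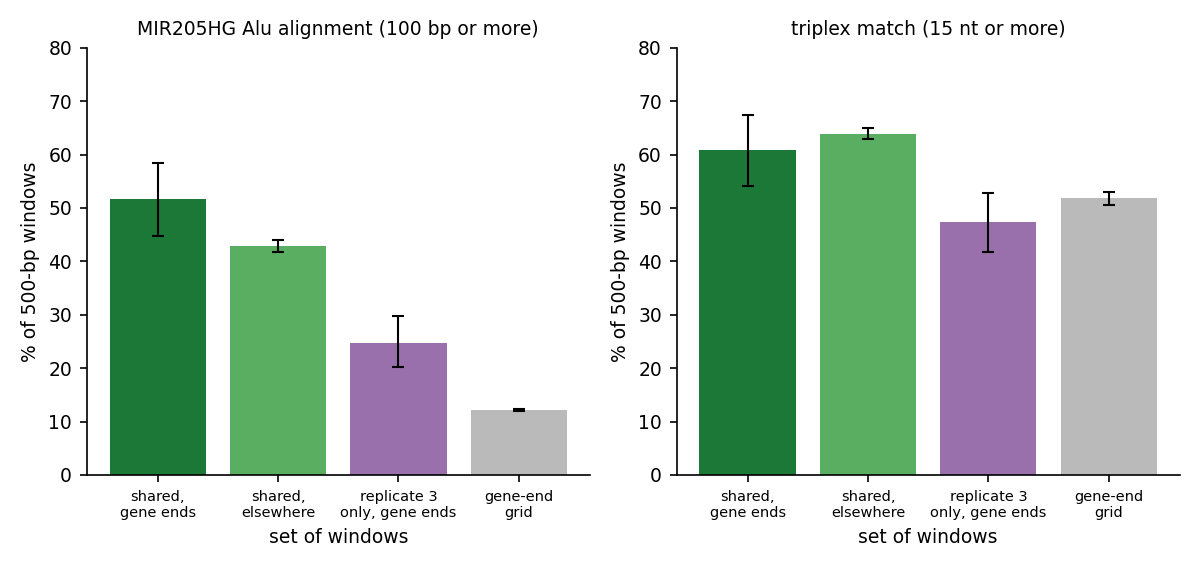
Percent of 500 bp windows (y axis) with an alignment of at least 100 bp to the MIR205HG Alu (left) or a triplex match of at least 15 nt (right) at shared gene-end peaks, other shared peaks, gene-end peaks of replicate 3 only and windows laid over all gene ends; bars are exact 95% intervals. The Alu shares are 51.6, 42.9, 24.7 and 12.2%, and the triplex shares 60.9, 63.9, 47.3 and 51.8%.

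In 3′ UTRs the share was 47.0% (35.9 to 58.3%), against 7.29% of the 3′ UTR windows, and downstream it was 54.5% (45.7 to 63.2%), against 17.3% of the downstream windows. The summit lay inside the alignment at 44 of the 111 peaks (39.6%), near the 41.6% of the other shared peaks with an alignment. The Alu read in the MIR205HG direction on the strand of the gene at 47 of the 108 peaks whose gene strand was clear (43.5%, 34.0 to 53.4%), and at 48.5% of gene-end windows with an Alu. Peaks with the alignment had a median replicate 3 fold of 7.97 and those without it 9.46. Their lacZ levels also differed, with medians of 2 and 1.02.

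The Alu share was 43.1% among the 72 peaks with the highest mean fold, 51.4% among the next 72 and 60.6% among the 71 with the lowest, and 2 of the 10 highest had the alignment. A search with the first intron included, which adds the part of the Alu that is spliced out, found it at 67.0% of the 215 peaks, 58.7% of the other shared peaks and 20.4% of the windows. By this search 5 of the 10 highest had it, and QKI, MYLK2, C3orf70, DPH6 and SEPTIN3 did not.

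The longest exact match to the transcript had a median of 14 nt at gene-end peaks (range 8 to 27) and 11 nt in the windows laid over gene ends. It touched the Alu at 74.0% of gene-end peaks (67.5 to 79.7%), 65.1% of the other shared peaks and 42.3% of the windows scanned. A match of at least 20 nt, the length of a ChIRP probe, was present at 17 of the 215 peaks, or 7.91% (4.67 to 12.4%), at 6.35% of the other shared peaks and at 2.31% of the windows. The sequences of the probes were not used here.

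**Figure D5:**
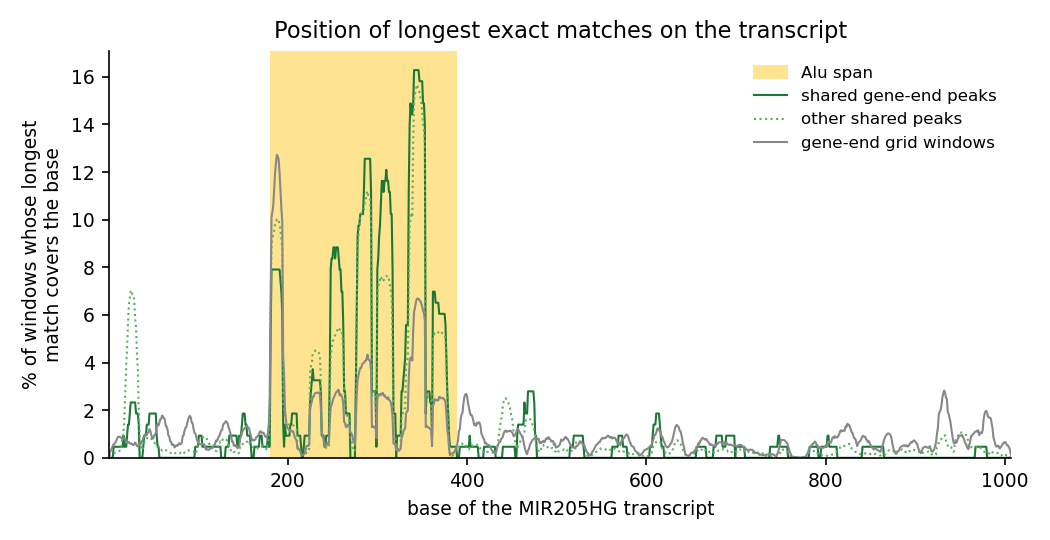
Percent of windows whose longest exact match covers each base of the MIR205HG transcript (x axis, 1007 bases), for shared gene-end peaks, other shared peaks and windows laid over gene ends, with the Alu at bases 182 to 388 shaded. The gene-end peaks reach 16.3% at their highest point, which lies in the Alu, and the windows 6.14% there. The windows are highest at base 188, near the start of the Alu, with 12.7%, and the gene-end peaks have 7.91% there.

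Outside the Alu the longest match had a median of 10 nt at gene-end peaks, at the other shared peaks and in the windows. It reached at least 15 nt at 2 of the 215, DPH6 with 16 nt and GZF1 with 15 nt, and both were among the 14 with a replicate 1 peak. These were named after their values were seen. Of the other shared peaks, 2.82% had such a match. Their longest matches covered base 26 of the transcript at 7.03% of peaks, which was their highest point outside the Alu. At this base the gene-end peaks had 2.33% (5 of 215) and the windows 0.601%. The highest point of the gene-end peaks outside the Alu was base 181, with 5.12% (11 of 215). There the other shared peaks had 6.09% and the windows 6.61%.

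A triplex match was a stretch of at least 15 nt in which pyrimidines of the RNA could lie along a purine strand of the DNA, allowing mismatches at up to 20% of positions but no more than 2 next to each other. It was present at 131 of the 215 peaks, or 60.9% (54.1 to 67.5%), at 63.9% of the other shared peaks and at 51.8% of the windows. At a minimum of 20 nt these were 43 of the 215, 17.2% and 9.29%. Gene-end peaks with an Alu alignment had a triplex match at 80.2% and those without one at 40.4%, and the other shared peaks gave 83.1% and 49.5%. The matches gathered at transcript bases 177 to 198, which 123 of the 215 touched (57.2%, 50.3 to 63.9%), near the 58.8% of the other shared peaks, and 3215 of the 7151 windows scanned did. This stretch overlaps the start of the Alu as bounded here. The paper places its putative DNA binding domains directly upstream of the Alu.

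The GC content had a median of 48.4% at gene-end peaks, 46.4% at the other shared peaks, 50.8% at the replicate 3 gene-end peaks with no replicate 2 peak and 42.6% in the windows. The AATAAA hexamer, the main signal for cleavage and polyadenylation, was on the gene strand in 31.9% of the gene-end peaks with a clear strand (66 of 207, 25.6 to 38.7%) and in 34.7% of the windows.

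Replicate 2 had 278 gene-end peaks by its own summits, of which 229 overlapped a replicate 3 peak (82.4%, 77.4 to 86.7%), and outside gene ends 80.6% did. Of the 547 gene-end peaks of replicate 3, 39.3% were shared (35.2 to 43.5%), and outside gene ends 48.0% were (47.2 to 48.7%). The gene-end peaks of replicate 3 only had a median fold of 6.30 on 13 reads, against 21 reads at the shared ones. At the bounds of the selection, the SPARC peak lay 2983 bp past the gene, and a peak 3031 bp past LINC00999, annotated as protein-coding in this release, was just outside. The smallest overlap was 45 bp, at RPP25, and a peak at CD164L2 lay 13 bp from the nearest replicate 2 peak. The promoter zone removed 41 shared peaks in gene ends, of which the one at SNX20 lay 48 bp inside the zone, and the NECAB3 peak lay 20 bp outside it.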

How the data were processed

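The files used were the narrow peak lists deposited for the 3 MIR205HG replicates. Per the submitters' processing notes and the methods, the authors aligned reads to hg19 with Bowtie 1.0.1 (the methods name Bowtie2) and called peaks with MACS2 2.1.0, each replicate alone against the 1 lacZ library. The deposited fold enrichment is a ratio over the local lacZ background, the deposited p- and q-values are −log10, the deposited score is for display, and another deposited column gives the summit offset. Peak names in the lists carry other library numbers than the labels, which were followed here.

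Gene ends came from GENCODE release 44 on GRCh37, the build of the files. Reads at summits were solved from the fold and p-value with 1 depth scale per replicate (100% of peaks), and this was tested on simulated data. Sequence was read from GRCh37, Alu alignments were made with blastn 2.17.0, and every 20th of the gene-end windows was searched for triplex and exact matches. Shares have exact Clopper-Pearson 95% intervals and densities exact Poisson ones. A count of 0 is given with the limit that 3 counts of the total set, in place of the exact bound. All of these cover counting error only, and no test was run. Computations used scipy 1.17.1, pysam 0.24.0, pandas 2.3.3 and numpy 2.4.6 under Python 3.11.15.

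Named genes are the 10 peaks with the highest geometric mean fold of replicates 2 and 3, those with a replicate 1 peak, the genes with most peaks (ties included, so 8), list genes with a peak and peaks at the bounds of the selection. The members and lists were chosen with earlier results of these data known. Alternatives were other overlaps, thresholds, reaches, windows and alignment lengths, and leaving out each replicate. Some items that the rule named are not reported here.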

Additional observations from a re-analysis of the deposited data

How the results depend on the processing

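Leaving out a replicate gave 14 to 215 gene-end peaks. Without replicate 2 (replicates 3 and 1) and without replicate 3 (replicates 2 and 1) there were 14 each, since replicate 1 had few peaks. Their median fold was 22.3 in replicate 3 without replicate 2, and 13.8 in replicate 2 without replicate 3, and the ratio of peaks per Mb at gene ends to the rest was 0.824 and 0.835. With a reach of 1000 bp there were 125 gene-end peaks and this ratio was 0.887. It was thus below 1 under these 3 settings and 1.05 as reported, with an interval of 0.916 to 1.198 that includes 1, so no direction can be read from it. The Alu share was 66.0% from 50 bp, 1.4% from 150 bp, 21.9% in 200 bp windows and 67.0% with the intron part, which was added after seeing the data. The median GC content was 50.5% in 200 bp windows, 47.2% in 1000 bp windows and 49.5% over the whole peak. The triplex share was 20% from 20 nt, 27.9% in 200 bp windows and 76.7% in 1000 bp windows. The search with RN7SL1 was not run. The order of the Alu shares was the same from 50 bp (66.0% at gene ends, 57.6% at other shared peaks, 21.1% in windows).

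No paired analysis was possible because only 1 group has peak lists and no result comes from a test. The single lacZ library, the short replicate 1 list and repeats at which reads map less surely limit these values.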
